A study of Mus musculus and Homo sapiens with 180 samples.

Results

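The experiment described here is the response of PCGF1/BCOR knockout (KO) MOLM13 cells to 96 h of the Menin inhibitor VTP50469. It comprises 6 libraries, 3 of PCGF1/BCOR KO cells given 500 nM VTP50469 for 96 h and 3 of PCGF1/BCOR KO cells given DMSO and labelled 96 h, picked by genotype and treatment from the 24 MOLM13 libraries of a drug washout experiment and from 180 samples in the whole series. MOLM13 is a human acute myeloid leukaemia line that carries the MLL-AF9 fusion, and RNA was read by 3′ RNA-seq, in which each read comes from the polyadenylated end of a transcript. The washout experiment asks how expression behaves when the inhibitor is given and then withdrawn with or without PRC1.1. Set beside the KO libraries were 3 control libraries with 500 nM VTP50469 for 96 h and 3 control libraries with DMSO, and from a separate experiment PCGF1 KO and BCOR KO cells given 500 nM VTP50469 for 48 h or DMSO. The DMSO libraries of that experiment are labelled 72 h, so times differ within it. All populations carry Cas9. The knockouts are polyclonal, so that each holds a mixture of edits, and the control cells carry a guide against a genomic location with no annotated function. In all groups PTPRC, the pan-leukocyte antigen CD45, and MPO, the myeloperoxidase of myeloid granules, were expressed, whereas KIT stayed under 1 CPM and CD34 had no count in 5 of the 6 KO libraries.

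Menin is a scaffold that holds MLL proteins and MLL fusions on chromatin, where they keep genes such as MEIS1 and the HOXA cluster active in leukaemia. VTP50469 occupies the pocket of Menin to which MLL binds. PCGF1 and BCOR are subunits of PRC1.1, a variant Polycomb repressive complex that is brought to CpG islands by KDM2B and places ubiquitin on histone H2A at silent genes.

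The guides against the knocked-out genes define the genotype and are shown here as they lie in the GRCh38 genome, with the adjoining PAM in capitals. The study lists 2 guides for each human gene and does not state which were used in the double knockout. Both BCOR sites are in coding exon 4 of 15, sgRNA1 at chrX:40074757-40074774 on the minus strand and sgRNA2 at chrX:40074498-40074515 on the plus strand. The PCGF1 sites are in coding exon 3 of 9 for sgRNA1, at chr2:74506835-74506853 on the plus strand, and in coding exon 7 for sgRNA2, at chr2:74505591-74505608 on the minus strand.
BCOR sgRNA1: gggtcaatccttacatggAGG
BCOR sgRNA2: gcgcaatggacgagaggcGGG
PCGF1 sgRNA1: ggggcagtacttgctagttTGG
PCGF1 sgRNA2: gaggtacgccatctccggAGG

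The guide sites lie upstream of the transcript ends that were sequenced, so the counts do not check the edits. BCOR stood at 19.6, 23.2 and 21.4 CPM in KO DMSO replicates 1, 2 and 3 and at 13.1, 15.8 and 15.2 CPM in the KO VTP50469 replicates, where CPM is the count relative to the scaled size of the library. The KO groups did not overlap, but the fall missed the test (log2 fold change −0.56 ± 0.35 SE, edgeR adjusted p = 0.237). Control cells had 17.9 ± 3.76 CPM of BCOR with DMSO and 18.6 ± 4.99 with VTP50469 (SD, n = 3). PCGF1 was near the detection limit of this table, with 0.495, 0.619 and 0.101 CPM in KO DMSO, 2.39, 0 and 0 in KO VTP50469 and a mean of 0.564 in control DMSO, and was not called (adjusted p = 0.567).

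Depth differed between the groups compared. KO DMSO libraries held 30970808 to 47065530 counts and KO VTP50469 libraries 6483251, 491592 and 3019904, so the smallest DMSO library was 4.78 times the largest treated one. Control DMSO libraries (21732246 to 40250935) and control VTP50469 libraries (1918125 to 7013144) differed in the same way, and in both genotypes depth and treatment cannot be told apart. Mitochondrially encoded RNAs took 3.18% to 4.54% of counts in KO DMSO and 14.7% to 34.5% in KO VTP50469, against 2.78% to 4.69% and 8.71% to 28.1% in the control groups. The noncoding nuclear RNA MALAT1 stood at 222 to 818 CPM in KO DMSO and 1370 to 3899 CPM in KO VTP50469. The part of depth and RNA composition in the results below was not tested apart from the alternatives given. In KO VTP50469 replicate 2 a single read is worth 1.58 CPM and 3 counts, taken as the floor of detection, are 4.75 CPM, against at most 0.109 CPM in the DMSO libraries. In bulk RNA, fewer cells of a type and less RNA per cell cannot be told apart.

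**Figure D1:**
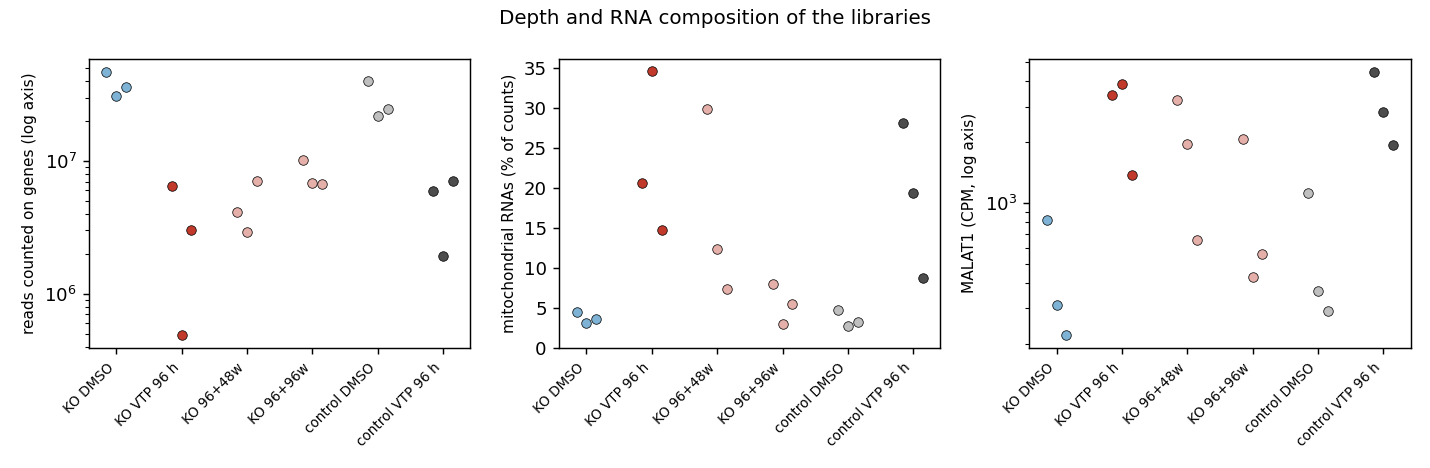
Total counts on a log axis, percent of counts from mitochondrially encoded RNAs and MALAT1 in CPM for each library, by group, with 1 point per library; the KO groups with 96+48w and 96+96w had the drug withdrawn for 48 h or 96 h. The 3 KO VTP50469 libraries hold 491592 to 6483251 counts, all below the DMSO libraries, and 14.7% to 34.5% mitochondrial counts, all above them.

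In PCGF1/BCOR KO cells given VTP50469 for 96 h, the HOX cofactor genes MEIS1 and PBX3 were lower than with DMSO. So were the myeloid transcription factors MEF2C and IRF8, the MYC gene and many genes of growth and division. The MEF2C call and many of the growth gene calls were lost with library size alone. The myeloid genes MPO, BPI and CYBB and the gene MEGF6 rose, while the lists of myeloid markers they belong to held calls in both directions and mostly uncalled genes. Of 12741 genes tested, 3526 were called at an adjusted p under 0.05 (27.7%), 1345 higher (10.6%) and 2181 lower (17.1%), with a median absolute log2 fold change of 2.0 among those called. At an unadjusted p under 0.05 there were 5245. The 10.6% and 17.1% are the shares over all genes beside which the list counts below stand. The libraries of the KO groups did not overlap for 1173 of the 1345 raised and 2165 of the 2181 lowered genes, against 6015 of all genes tested (47.2%).

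The balance of raised and lowered genes rested on the scaling. With TMM factors, which centre the bulk of genes, the median log2 fold change of all genes was −0.10 and 38.1% of calls were higher; with library size alone the median was 0.44 and 72.5% of 3086 calls were higher, and with RLE factors 0.22 and 56.3% of 3315. Both alternatives moved the fold changes upward, so that all 1345 raised calls were kept is no check of them. Of the 2181 lowered calls, 848 were kept with library size alone and 1449 with RLE factors. Same-numbered replicates deviated together, and a fit that paired them in a block called 5289 genes, 2023 higher and 3266 lower, 3520 of the 3526 among them. Thinning was applied to the KO DMSO and KO VTP50469 libraries, while the other libraries of the fit kept their depth. At the size of KO VTP50469 replicate 2, 1732 calls were made, 1031 of them higher. Without that replicate there were 2225 calls, without KO VTP50469 replicate 1 2033, without KO DMSO replicate 2 1721 and without KO DMSO replicate 3 2271.

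MEIS1 encodes the homeobox cofactor that acts with HOXA9 in MLL leukaemia. It stood at 24.1, 22.1 and 25.9 CPM in KO DMSO and at 3.52, 6.34 and 1.49 CPM in KO VTP50469. Every treated library lay below every DMSO library, with a log2 fold change of −2.88 ± 0.72 (SE, edgeR adjusted p = 0.00692), and only the thinned counts lost the call (−2.48, adjusted p = 0.0827). In control cells MEIS1 fell from 24.1, 23 and 30.1 CPM to 0.148, 0 and 2.73 CPM, a log2 fold change of −4.54 (adjusted p = 0.000448), and the difference of 1.66 between the genotypes missed the test (adjusted p = 1). PBX3, the partner of MEIS1 and HOXA9 on DNA, stood at 30.8, 33.5 and 29.9 CPM in KO DMSO and 9.18, 1.58 and 8.33 CPM in KO VTP50469. It fell by 2.12 ± 0.43 on the log2 scale (adjusted p = 0.00251) and was called under every alternative run for it. Of the 6 TALE homeobox genes tested out of 11 listed, 4 were called lower and none higher, with a median of −2.20. The others called were PKNOX1 (−2.29) and TGIF1 (−2.37), the latter a corepressor in TGF-β signalling.

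The promoters of MEIS1, which fell, and of MEGF6, which rose, are shown because PRC1.1 is recruited through CpG dinucleotides. Each run is the 250 bases before the start of the GENCODE 44 transcript on GRCh38, on the gene's strand, with every CG in capitals: MEIS1 at chr2:66434875-66435124 (plus strand, 16 CG) and MEGF6 at chr1:3611509-3611758 (minus strand, 23 CG). Windows of this length held a median of 23 CG for raised genes, 21 for lowered genes and 22 for all genes tested, and 99.1% of all windows held at least 1. Nothing was measured at these promoters.
MEIS1 promoter: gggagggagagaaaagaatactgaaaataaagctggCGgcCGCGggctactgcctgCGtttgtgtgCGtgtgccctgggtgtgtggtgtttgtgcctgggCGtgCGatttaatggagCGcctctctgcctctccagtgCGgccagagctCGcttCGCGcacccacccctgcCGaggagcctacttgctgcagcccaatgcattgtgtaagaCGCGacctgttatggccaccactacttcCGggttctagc
MEGF6 promoter: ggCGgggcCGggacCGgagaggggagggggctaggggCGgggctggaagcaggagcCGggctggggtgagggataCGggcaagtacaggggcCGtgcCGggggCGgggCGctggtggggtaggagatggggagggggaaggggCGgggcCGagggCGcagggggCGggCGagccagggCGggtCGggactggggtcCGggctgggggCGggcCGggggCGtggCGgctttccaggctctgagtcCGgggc

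IRF8, a transcription factor of monocytes and dendritic cells, stood at 296, 410 and 356 CPM in KO DMSO and 29.2, 53.9 and 20.8 CPM in KO VTP50469. The groups lay far apart, with a log2 fold change of −3.39 ± 0.41 (adjusted p = 8.89e-05), and the control response was −3.35. MEF2C, a factor of myeloid and lymphoid progenitors, stood at 150, 117 and 110 CPM in KO DMSO and 43.9, 9.5 and 29.7 CPM in KO VTP50469. Its fall of 2.11 ± 0.68 (adjusted p = 0.0261) did not overlap between groups but was no longer called with library size alone (−1.55, adjusted p = 0.0916), nor without KO DMSO replicate 1 or 2 or KO VTP50469 replicate 2 or 3 (adjusted p = 0.0639, 0.0579, 0.109 and 0.0617). The myeloid factor list had 2 genes higher, 4 lower and 16 not called of 22 tested, with a median of 0.06. ZEB1, a zinc finger repressor, rose from 9.64, 11.2 and 7.71 CPM to 77.8, 103 and 62.5 CPM (3.08 ± 0.47, adjusted p = 0.000658), and RUNX1, a core haematopoietic factor, rose by 1.5. ID1 and KLF6 were called lower (−2.09 and −1.66), but KLF6 lost its call without any single KO library (adjusted p 0.0502 to 0.222) and ID1 without KO VTP50469 replicate 1 or 2 or KO DMSO replicate 2 or 3 (adjusted p 0.104 to 0.22), and both with library size alone (adjusted p = 0.139 and 0.115).

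The study's own MLL fusion targets and stem-like genes, a list that is not independent of this system, had 1 gene higher, 6 lower and 14 not called among 21 tested. Their median was 0.27, beside −0.10 over all genes tested. With library size alone 2 were lower (median 0.83) and with RLE factors 3, and 1 was higher in both. HOXA10, a posterior HOXA factor, stood at 45.4, 55.7 and 49.7 CPM in KO DMSO and 15.6, 15.8 and 15.8 CPM in KO VTP50469, so that the treated replicates were tightly grouped below all DMSO libraries (−1.68 ± 0.41, adjusted p = 0.00618). It was not called with library size alone (−1.12, adjusted p = 0.0752). EMB, which encodes the adhesion protein embigin, stood at 76.6, 132 and 102 CPM and 47, 44.3 and 42.5 CPM (−1.21 ± 0.35, adjusted p = 0.0159), a call also lost with library size alone (−0.67) and without KO VTP50469 replicate 1 or 2 or KO DMSO replicate 2 (adjusted p = 0.0799, 0.0508 and 0.113). SSBP2, a partner of LIM-domain factors, fell by 2.36 ± 0.55 (adjusted p = 0.00472) and kept its call under every alternative. LPXN, the focal adhesion protein leupaxin, was called at −1.15 (adjusted p = 0.0324) but not with RLE factors, library size alone, DESeq2 or thinning, and not without KO VTP50469 replicate 1 or 2 or KO DMSO replicate 2 or 3.

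The single raised gene of this list, the histone demethylase family member JMJD1C, stood at 36.3, 45 and 36.3 CPM in KO DMSO and 158, 143 and 125 CPM in KO VTP50469. All treated libraries lay above the DMSO libraries (1.86 ± 0.58, adjusted p = 0.0231), and the call was lost without KO DMSO replicate 1 or 3 (adjusted p = 0.0684 and 0.0707). At 48 h it had moved the other way, by −1.19 in PCGF1 KO and −1.04 in BCOR KO cells. Of 10 HOXA genes tested, 1 was called in KO cells, HOXA10, and the paired block called 2; the median was −0.38, a sign that turned with library size alone (0.12). In control cells 5 of the 10 were called lower, beside 14.6% of all genes, with a median of −1.65, 2 with library size alone and 6 with the block, and none of the 10 differed in response between the genotypes in the direct test. HOXA9 was thinly covered, with 1.81, 1.53 and 4.62 CPM in KO DMSO and 0.755, 1.58 and 3.87 CPM in KO VTP50469, and the overlapping groups gave no call (−0.34 ± 1.09, adjusted p = 0.834).

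MPO stood at 139, 174 and 221 CPM in KO DMSO and 577, 497 and 771 CPM in KO VTP50469. Each treated library was above the DMSO libraries (1.79 ± 0.34, adjusted p = 0.0019), and MPO was called under all alternatives. BPI, an antibacterial protein of the same azurophil granules, rose from 0.932, 2.66 and 3.08 CPM to 32.2, 42.8 and 53.2 CPM (4.26 ± 0.59, adjusted p = 0.000408). Of 12 primary granule genes tested 2 were higher, 1 lower and 9 not called (median −0.18, and 0.37 with library size alone). The lowered gene was SRGN, the granule proteoglycan serglycin (−1.61), which was not called with RLE factors or with library size alone (adjusted p = 0.181 for the latter) nor without any single KO library other than KO DMSO replicate 3 (adjusted p 0.0758 to 0.157). With the block 3 were lower. At 48 h, 7 of 15 such genes tested were higher in PCGF1 KO (beside 4.92% of all genes) and 9 of 15 in BCOR KO cells (beside 4.22%), and none lower.

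Monocyte and macrophage markers moved both ways in KO cells at 96 h, with 4 higher, 3 lower and 18 not called of 25 tested (median 0.05). CYBB, the NADPH oxidase subunit of phagocytes, stood at 5.27, 6.73 and 8.51 CPM in KO DMSO and 89, 12.7 and 44.3 CPM in KO VTP50469 (2.88 ± 0.64, adjusted p = 0.00375). ITGAX, the integrin CD11c, was higher by 4.49 and the endotoxin receptor TLR4 by 3.16. The ITGAX call was lost when thinned (adjusted p = 0.227). The lysosomal proteases CTSB (−2.66) and CTSS (−1.80) and the Fc receptor FCGR2A (−2.52) were called lower, FCGR2A losing its call with library size alone (adjusted p = 0.112) and without any single KO library (adjusted p 0.0511 to 0.231). In control cells 10 of these 25 genes were higher (beside 9.58% of all genes) and none lower. None of the 25 differed in response between the genotypes in the direct test. At 48 h 12 of 22 in PCGF1 KO (beside 4.92% of all genes) and 13 of 22 in BCOR KO cells (beside 4.22%) were higher and none lower. Of the antigen presentation genes, CD74, the class II invariant chain, stood at 278, 336 and 424 CPM and 42.8, 72.9 and 123 CPM (−2.12 ± 0.75, adjusted p = 0.0385) but lost its call with library size alone (adjusted p = 0.0923) and without any single KO library other than KO VTP50469 replicate 3 (adjusted p 0.0551 to 0.192).

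Granulocyte markers had 3 genes higher, 1 lower and 13 not called of 17 tested in KO cells (median 0.20), beside 10.6% of all genes higher and 17.1% lower. Control cells had 12 higher and none lower (median 3.26), beside 9.58% of all genes higher. In the direct test 2 of the 17, S100A9 and S100A12, differed in response between the genotypes, beside 0.0549% of all genes tested. With the paired block 3 of the 17 differed. S100A8, a calcium-binding protein of neutrophils and monocytes, stood at 4.48, 3.2 and 4.36 CPM in KO DMSO and 6.92, 33.3 and 8.92 CPM in KO VTP50469 and was called higher (1.82 ± 0.57, adjusted p = 0.0215), with the largest value in the shallowest library. Without that library the adjusted p was 0.153, and without KO DMSO replicate 2 or 3 it was 0.0716 and 0.0505. The G-CSF receptor gene CSF3R rose by 1.40 ± 0.33 (adjusted p = 0.0053). The chemokine receptor gene CXCR2 was called lower (−2.39), from 7.48, 8.59 and 7.4 CPM to 1.89, 1.58 and 0.892 CPM. The 1.58 CPM is a single read, and the CXCR2 call was lost when thinned (adjusted p = 0.244). The summed level of the 30 listed granulocyte genes was 1235 to 1788 CPM in KO DMSO and 877 to 1732 CPM in KO VTP50469, which overlapped. Of the 30, 10 had no count in any of the shallower KO VTP50469 libraries and 6 had none in any KO DMSO library.

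Several lists of growth genes held more lowered than raised members. MYC, the growth-promoting transcription factor, stood at 232, 321 and 218 CPM in KO DMSO and 43, 76 and 56.5 CPM in KO VTP50469. No treated library reached a DMSO library (−2.15 ± 0.50, adjusted p = 0.00471) and the call was kept under all alternatives. Of 21 genes of MYC and the nucleolus tested, 11 were lower and none higher (median −1.11), among them the ribosome assembly factors BYSL (−2.31) and RRP9 (−2.30) and the nucleolar protein NPM1 (−1.78), whose call was lost without KO VTP50469 replicate 1 or 2 or KO DMSO replicate 2. With library size alone 3 were lower and 1 higher.

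Amino acid response genes, targets of the factor ATF4, had 10 lower and 1 higher of 20 tested (median −1.65). PSAT1, an enzyme of serine synthesis, stood at 204, 383 and 312 CPM in KO DMSO and 51.4, 23.8 and 31.8 CPM in KO VTP50469. The groups were well separated (−3.04 ± 0.41, adjusted p = 0.000295). The mitochondrial folate enzymes MTHFD2 (−2.41) and SHMT2 (−2.10) fell with it. In glycolysis 7 of 20 genes were lower and none higher (median −1.16). ENO1, the glycolytic enolase, stood at 5159, 7025 and 6632 CPM in KO DMSO and 992, 912 and 1091 CPM in KO VTP50469 (−2.65 ± 0.57, adjusted p = 0.00331), and GAPDH at 8821, 11238 and 7392 CPM and 3581, 1688 and 1673 CPM (−1.98 ± 0.49, adjusted p = 0.0067).

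For DNA replication, 10 of 26 genes were lower and none higher, with a median of −0.44 that turned to 0.13 with library size alone, where 5 were lower and 1 higher. RRM2, a subunit of ribonucleotide reductase, stood at 294, 452 and 453 CPM and 84.4, 66.5 and 96.4 CPM (−2.27 ± 0.41, adjusted p = 0.00153). Mitotic genes had 8 lower and 3 higher of 24 (median −0.98), but 4 lower and 6 higher with library size alone, 7 and 6 with RLE factors, and 14 and 5 with the paired block. The mitotic cyclin gene CCNB1 stood at 558, 847 and 677 CPM in KO DMSO and 69.8, 93.4 and 101 CPM in KO VTP50469 (−2.98 ± 0.86, adjusted p = 0.0148). The call was lost without KO VTP50469 replicate 1 or 2 or KO DMSO replicate 2 (adjusted p = 0.0795, 0.0554 and 0.0552). By contrast CENPE, a kinesin of the kinetochore, was higher by 2.57. Among G1 regulators 3 of 10 were lower (5 with the block) and none was higher, beside 17.1% of all genes lower. The lowered ones included the CDK4/6 inhibitor gene CDKN2C (−2.92) and the cyclin gene CCND3 (−1.70). CCND3 was not called with library size alone (edgeR adjusted p = 0.0584).

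Lysosomal genes had 8 lower and 1 higher of 27 (median −0.94), beside 17.1% of all genes lower and 10.6% higher. The 48 h responses had 6 higher and 1 lower in PCGF1 KO (beside 4.92% of all genes higher) and 7 higher and 1 lower in BCOR KO cells (beside 4.22%). CTSL, a lysosomal cysteine protease, was lower by −3.44. Apoptosis genes had 6 lower and 1 higher of 20 (median −0.92), the lowered ones with the death receptor FAS (−2.25) and the death ligand TNFSF10 (−2.09), and the raised one BMF (1.39), a BH3-only killer protein. With library size alone 1 was lower and 2 higher. FAS lost its call without KO VTP50469 replicate 1 or 2 or KO DMSO replicate 2 (adjusted p 0.0723 to 0.139), TNFSF10 without any KO library other than KO VTP50469 replicate 1 (adjusted p 0.0551 to 0.149) and BMF without KO DMSO replicate 2 or 3.

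Among chromatin complexes, MLL and DOT1L complex genes had 7 higher and 2 lower of 20 tested (median 1.08). KMT2A, the normal MLL gene that also gives the 5′ part of the fusion, stood at 15.5, 12.4 and 15.8 CPM in KO DMSO and 94.2, 120 and 86 CPM in KO VTP50469. All treated libraries were higher (2.77 ± 0.59, adjusted p = 0.00304), and the control response was 2.89. The related methyltransferase genes KMT2C (3.16) and KMT2D (3.24) and the H3K79 methyltransferase gene DOT1L (1.79) were also higher. The KMT2D call was lost when thinned (edgeR adjusted p = 0.0831), and DOT1L was not followed through the alternatives. KMT2B was called higher too (2.87), a call lost without any single KO library. DPY30 was lower (−1.99), a call lost without KO DMSO replicate 1 or KO VTP50469 replicate 2 or 3. At 48 h none of 18 such genes was called in PCGF1 KO and 1 in BCOR KO cells. PRC1.1 genes had 2 of 8 lower, the H2A ubiquitin ligase RNF2 (−2.08) and the adaptor SKP1 (−2.82), and none higher. That is 25% called, beside 27.7% of all genes. Other PRC1 genes had 3 higher and 3 lower of 14 and PRC2 genes 3 higher and 2 lower of 10.

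**Figure D2:**
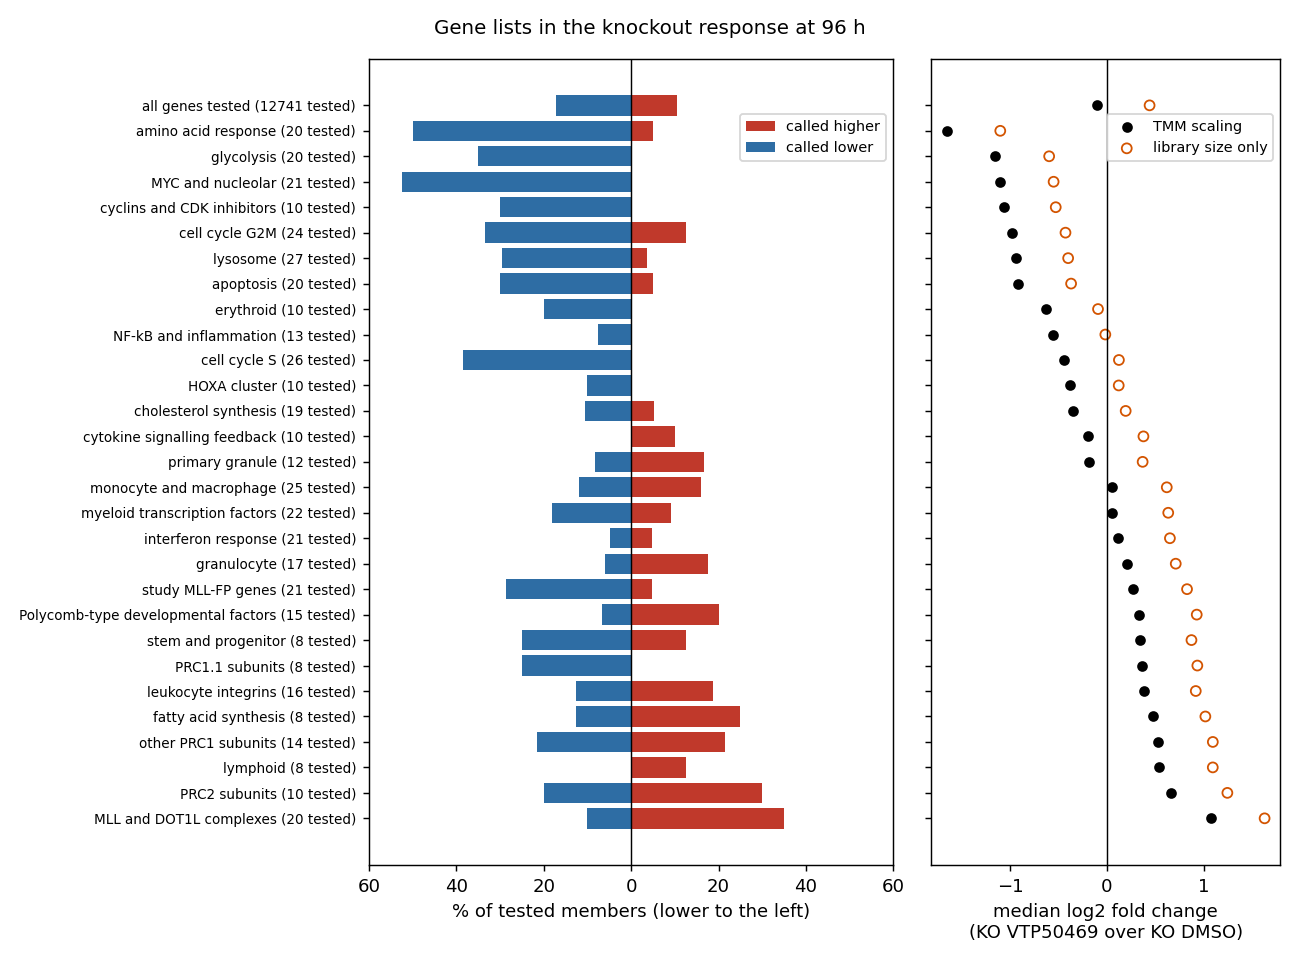
Gene lists with at least 8 tested members in the KO response at 96 h; the left panel gives the percent of tested members called higher (right) or lower (left) and the right panel the median log2 fold change with TMM scaling and with library size alone. Amino acid response (10 of 20 lower) and MYC and nucleolar genes (11 of 21 lower) reach furthest to the left and MLL and DOT1L complex genes (7 of 20 higher) furthest to the right, and library size alone moves each median shown to the right.

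The remaining lists had few tested members, and their calls are given beside 27.7% of all genes called. Stem and progenitor genes had 1 higher (GATA2, 2.09) and 2 lower (CD38, −1.81, and the cytokine receptor FLT3, −1.33) of 8 tested. GATA2, CD38 and FLT3 lost their calls when thinned, and FLT3 also with library size alone (edgeR adjusted p = 0.126). Polycomb-type developmental factors had 3 higher and 1 lower of the 15, among 35 listed, that passed the expression filter. POU4F1 was at 3.81 and NR2F2 at 3.6, calls that were lost without any 1 KO DMSO library and, for POU4F1, also without KO VTP50469 replicate 2. Interferon genes had 1 higher and 1 lower of 21, or 3 and 3 with the paired block, and the lowered one, OASL, had no count in KO VTP50469 and 305 in KO DMSO, at least 13.5-fold lower by a floor of 3 counts over the group. OASL was not called without KO VTP50469 replicate 1 or 3 or KO DMSO replicate 2 or 3 (adjusted p 0.0522 to 0.117). NF-κB genes had 1 lower of 13 (3 lower and 3 higher with the block), integrins 3 higher and 2 lower of 16, cholesterol synthesis 1 higher and 2 lower of 19 (2 and 4 with the block), fatty acid synthesis 2 higher and 1 lower of 8, and cytokine feedback genes 1 higher of 10. Of markers of other lineages, dendritic cell genes had 1 lower of 3 tested (2 with the block), megakaryocyte genes 1 lower of 2, lymphoid genes 1 higher of 8 and MHC class II genes 2 lower of 5. The summed level of the lymphoid list was 18.6 to 48.2 CPM in KO DMSO and 45.5 to 49.4 CPM in KO VTP50469, which overlapped. The dendritic list summed to 72.9, 72.7 and 84 CPM in KO DMSO and 36.8, 6.34 and 60.1 CPM in KO VTP50469, lower in each treated library, and the part of these lists in the results was not tested.

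The largest log2 changes without overlap, at a mean of at least 10 CPM in the higher group, were led by thinly expressed genes. The 12 most raised lay between 4.66 and 5.86 and 6 of them are uncharacterised LOC genes. MEGF6, which encodes a large EGF-repeat protein, stood at 11.2, 9.06 and 13.6 CPM in KO DMSO and 141, 456 and 291 CPM in KO VTP50469 (4.70 ± 0.57, adjusted p = 8.89e-05). Raised with it were MLXIPL, a glucose-sensing transcription factor (4.79), ANPEP, the myeloid aminopeptidase CD13 (4.66), the ciliary gene CFAP44 (5.24) and the antisense RNA UCKL1-AS1 (5.86), whose reads cannot be told from those of the opposite gene where strand was not kept. CFAP44 and UCKL1-AS1 lost their calls when thinned (edgeR adjusted p = 0.0511 and 0.0535), as did the LOC genes other than LOC101927080.

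The 12 most lowered began with PMP22, a myelin and membrane protein gene, with 8.62, 12.3 and 11.1 CPM in KO DMSO and only 2 counts in all KO VTP50469 libraries. MS4A4A, a macrophage membrane protein gene, stood at 35.8, 52 and 24 CPM and 0.377, 3.17 and 0.595 CPM (−5.66 ± 0.96, adjusted p = 0.001). SLC25A4, the mitochondrial ADP/ATP carrier, stood at 79.1, 124 and 97.7 CPM and 2.14, 0 and 6.84 CPM (−4.81 ± 0.73, adjusted p = 0.000658). The others ranged from −3.75 for the imprinted gene MEST to −4.74 for CDK6-AS1. PMP22 and CDK6-AS1 lost their calls when thinned (edgeR adjusted p = 0.144 and 0.0512), as did ZSCAN5A, PIR and TEX261 of the same 12. Of all 2181 lowered genes, 54 had at most 3 counts in the KO VTP50469 libraries together, and the size of their change is not given.

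By change in mean CPM, the most raised were the mitochondrial genes CYTB (2.28) and ATP6 (1.91), the nuclear RNA MALAT1 (2.68), the splicing factor gene SRRM2 (3.24), the translation factor gene EIF3A (2.12) and DEK (1.02), a chromatin protein. SRRM2 stood at 274, 126 and 261 CPM in KO DMSO and 1534, 2875 and 1848 CPM in KO VTP50469 and was not called at 48 h. The most lowered were GAPDH, ENO1, the actin gene ACTG1 (−2.27), the tubulin gene TUBA1B (−2.36), the cytochrome gene CYC1 (−3.19) and the histone gene H2AZ1 (−2.61). ACTG1, TUBA1B, GAPDH and H2AZ1 have close copies that can share reads, which makes their values uncertain. Of these genes, CYTB, ATP6, MALAT1, DEK, CYC1 and H2AZ1 lost their calls without 1 KO library or another.

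Next, the KO response was set beside that of control cells, to ask whether loss of PRC1.1 changes the response to the drug. Of the 1345 genes raised in KO cells, 731 were raised in control cells (54.3% of the KO calls and 59.9% of the 1221 control calls) and 1 was lowered; of the 2181 lowered, 1475 were lowered in control cells (67.6%, and 79.4% of 1858) and 4 were raised. In control cells 3079 genes were called (24.2%), and across the 12741 genes the responses had a Pearson r of 0.69, over genes that are not independent and libraries that share the depth gap. Genes raised in control cells had a median of 2.12 there and 1.78 in KO cells, and genes lowered in control cells −1.91 and −1.85. Genes chosen in KO cells had the larger median in KO cells instead, at 2.10 against 1.66 for raised and −1.97 against −1.70 for lowered genes.

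Tested directly, 7 genes differed in response (0.0549% of those tested), 6 lower (0.0471%) and 1 higher (0.00785%) in KO than in control cells, and 424 at an unadjusted p under 0.05. DESeq2 called 10 and the replicate block 10. When the KO and control libraries with DMSO or VTP50469 were thinned to the smallest, 2 were called, both lower in KO cells. The 7 were the neutrophil genes S100A9 and S100A12, the globin genes HBB, HBA1 and HBA2, the lysosomal nuclease gene DNASE2 and the ubiquitin gene UBB.

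S100A9 stood at 12.6, 6.52 and 10.5 CPM in KO DMSO, 7.92, 11.1 and 10.7 CPM in KO VTP50469, 5.44, 3.83 and 6.23 CPM in control DMSO and 83.3, 162 and 99.9 CPM in control VTP50469. The KO groups overlapped while the control groups lay far apart, and the difference of responses was −4.50 (edgeR adjusted p = 0.000275). S100A12 showed the same order, from 0.177, 0.0539 and 0.249 CPM to 10.8, 29 and 11.6 CPM in control cells and at most 1.58 CPM in any KO library, with a difference of −6.73 (adjusted p = 0.046) that was lost with RLE factors and library size alone (adjusted p = 0.0781 and 0.058) and without any single library other than KO VTP50469 replicate 2 (adjusted p 0.0538 to 0.254). LTF, the secondary granule protein lactoferrin and also a granulocyte marker, missed the test with −6.03 (adjusted p = 0.0633). That fit did not use the pairing, and with the paired block 3 granulocyte markers were called in place of 2.

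HBB, the adult β-globin gene, stood at 37.6, 38.5 and 47.6 CPM in KO DMSO and 2.26, 15.8 and 3.87 CPM in KO VTP50469, and at 1.13, 1.29 and 1.64 CPM and 47.5, 93 and 52.2 CPM in control cells. It fell in KO cells (−2.92 ± 0.64, adjusted p = 0.00368, and 0.051 without KO VTP50469 replicate 1) and rose in control cells (5.55), a difference of −8.47 (adjusted p = 3.19e-05). The α-globin genes HBA2 and HBA1 had differences of −7.30 and −6.52, and as near-identical copies they can share reads. The fall of HBA2 in KO cells alone (−2.12, adjusted p = 0.0197) was not called with RLE factors, library size alone or DESeq2 (adjusted p = 0.094 with library size and 0.0532 with DESeq2) nor without KO VTP50469 replicate 1 or 3 or KO DMSO replicate 2 or 3 (adjusted p 0.0516 to 0.214). The KO DMSO libraries thus held more globin RNA than the control DMSO libraries without overlap. Of 10 erythroid genes tested 2 were lower in KO cells, near the 17.1% of all genes, and 6 higher in control cells (beside 9.58%). The erythroid factors GATA1 and KLF1 were below the filter and reached at most 0.595 CPM in KO libraries.

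DNASE2 stood at 83.5, 104 and 89.3 CPM in KO DMSO and 57.5, 33.3 and 38.7 CPM in KO VTP50469, but at 4.87, 4.8 and 5.08 CPM and 12, 11.4 and 12.8 CPM in control cells. It fell in KO cells from a far higher level (−1.08 ± 0.29, adjusted p = 0.00991) and rose in control cells (1.29), a difference of −2.37 (adjusted p = 0.0147). It was not called without KO DMSO replicate 2, KO VTP50469 replicate 3, control VTP50469 replicate 3 or any 1 control DMSO library (adjusted p 0.0506 to 0.0864). UBB, 1 of the polyubiquitin genes, stood at 1.02, 1.31 and 1.24 CPM in KO DMSO and 4.9, 19 and 11.6 CPM in KO VTP50469, and at 55.7, 51.3 and 46.8 CPM and 3.4, 14.9 and 15.4 CPM in control cells. The response differed by 5.38 (adjusted p = 0.000634), with treated libraries of both genotypes overlapping and DMSO libraries far apart. With thinned counts no gene was called with a higher response in KO cells, so UBB lost its call. UBB has close relatives that share sequence, so the value is uncertain.

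**Figure D3:**
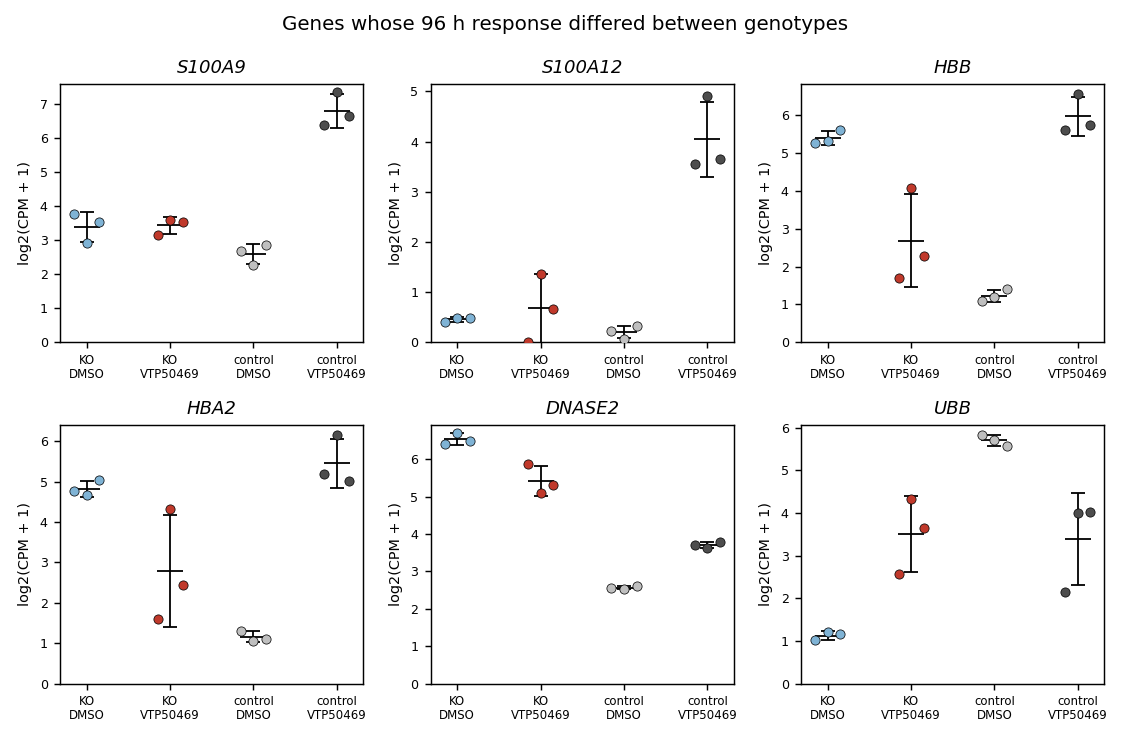
The figure plots 6 of the 7 genes whose response differed between genotypes, as log2(CPM + 1), with 1 point per library and bars for the mean ± SD of the 3 values. S100A9 and S100A12 lie higher in control VTP50469 libraries alone, HBB and HBA2 move in opposite directions in KO and control cells, and DNASE2 and UBB differ between genotypes already with DMSO.

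A separate set of MOLM13 libraries was used to ask which 96 h changes also appear in the single knockouts after 48 h. These libraries held 4283204 to 6330489 counts without a depth gap between DMSO and VTP50469, and 1003 genes of 12140 were called in PCGF1 KO (8.26%) and 879 in BCOR KO cells (7.24%). Of the 1097 genes raised at 96 h that were tested at 48 h, 99 were also raised in PCGF1 KO cells (9.02%, and 16.6% of 597) and 17 were lowered. Of 2059 lowered, 144 were lowered (6.99%, and 35.5% of 406) and 69 raised. Of all genes tested at 48 h, 4.92% were raised and 3.34% lowered in PCGF1 KO cells, and 4.22% and 3.02% in BCOR KO cells. Across 9925 genes the 96 h response had a Pearson r of 0.18 with PCGF1 KO and 0.20 with BCOR KO at 48 h, given as a description. Time, the DMSO time, the number of genes knocked out and the experiment differ together and cannot be told apart.

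In all 3 knockout responses 68 genes were raised (6.20% of the 96 h calls and 24.0% of the 283 raised in both at 48 h) and 79 lowered (3.84%, and 41.6% of 190). With library size alone 45 of the 79 were also called at 96 h. All 68 were too, but that scaling moves fold changes upward and so does not check raised calls. In control cells at 96 h 62 and 74 of them were called in the same direction. The genes named in the next sentences were chosen from these sets after their values were seen.

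Among the 68 were MEGF6 (4.70 at 96 h, 4.12 and 3.55 at 48 h in PCGF1 KO and BCOR KO), MPO (1.79, 1.99 and 2.30) and CYBB (2.88, 3.07 and 3.16). SERPINB10, a haematopoietic protease inhibitor, stood at 1.34, 1.71 and 2.24 CPM in KO DMSO and 30.8, 14.3 and 25.9 CPM in KO VTP50469 (3.78), with 3.69 and 5.00 at 48 h. CLEC12A, a myeloid lectin receptor, gave 2.7, 2.98 and 2.25, and NAV3, a neuron navigator gene, 4.41, 1.47 and 2.80.

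Among the 79 were MEIS1 (−2.88, −2.94 and −2.83), PBX3 (−2.12, −2.12 and −2.17) and MEF2C (−2.11, −2.21 and −2.09). ZNF521, a zinc finger cofactor of immature haematopoietic cells, stood at 25.4, 30 and 22.1 CPM in KO DMSO and 1.51, 9.5 and 2.08 CPM in KO VTP50469 (−3.08; adjusted p = 0.0712 without KO VTP50469 replicate 1), with −3.34 and −3.78 at 48 h. REEP3, a neighbour of JMJD1C, gave −1.64, −1.34 and −1.44, and the ephrin gene EFNA5 had no count in KO VTP50469. PSAT1 fell at each point, by −3.04, −0.85 and −0.80, and GPR84, an inflammatory fatty acid receptor, gave −3.67, −0.78 and −0.76. Opposite to both 48 h responses were 8 raised and 24 lowered genes.

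**Figure D4:**
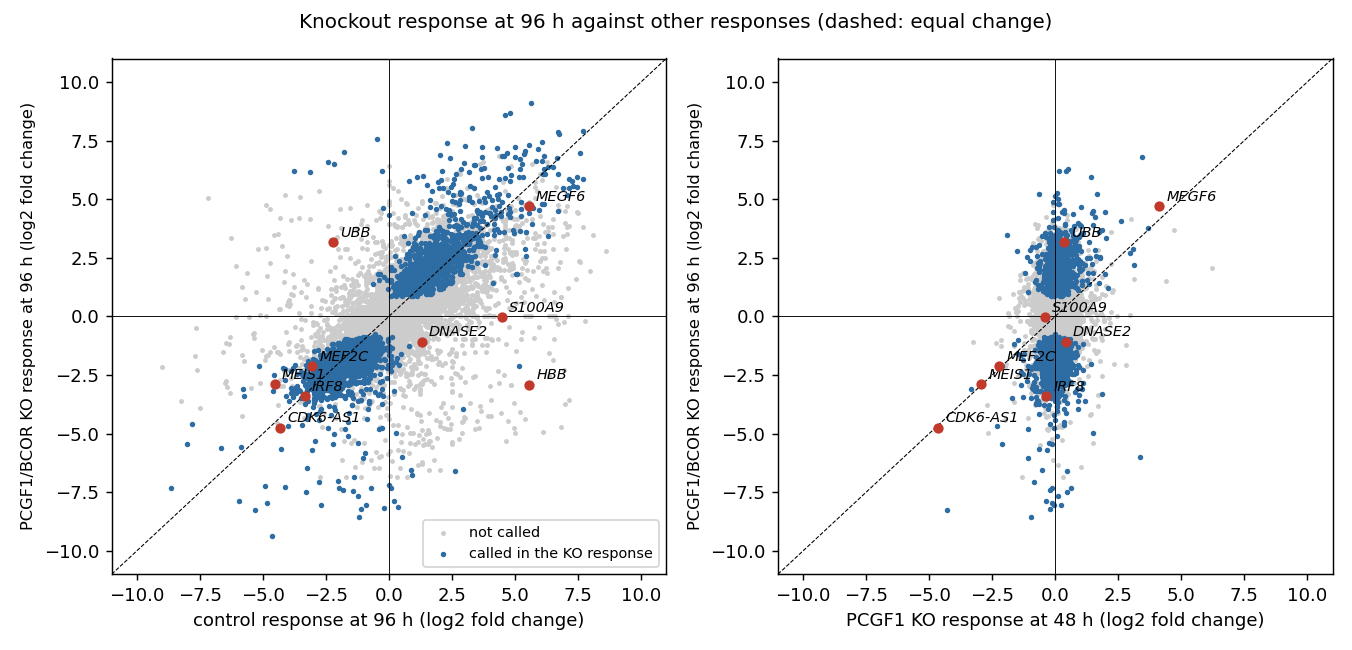
Log2 fold changes of the KO response at 96 h (vertical) against the control response at 96 h (left, 12741 genes) and the PCGF1 KO response at 48 h (right, 9925 genes), with 1 point per gene, genes called in the KO response in blue and the dashed line at equal change. Points follow the line on the left (Pearson r = 0.69) and scatter along the vertical on the right (Pearson r = 0.18).

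Against KO cells 96 h after the drug was withdrawn, whose libraries (6729733 to 10139313 counts, 2.97% to 8.01% mitochondrial) are nearer in depth, KO VTP50469 cells differed in 15 genes (0.118%), 11 higher and 4 lower, and in 2864 at an unadjusted p under 0.05. This reference was added after the data were seen. After withdrawal MEIS1 stood at 16.5 ± 5.14 CPM (SD, n = 3), and the treated libraries were lower by −2.33 ± 0.71 without passing the test (adjusted p = 0.0885). MEGF6 stood at 52.3 ± 19.3 CPM, the treated libraries being higher by 2.50 ± 0.52 (adjusted p = 0.0526), and IRF8 at 80 ± 28.4 CPM (−1.25, adjusted p = 0.0885). Withdrawn KO cells differed from KO DMSO cells in 45 genes (0.353%).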

How the data were processed

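Per the study's methods, the authors used bbmap for trimming and STAR for alignment to GRCh38, and deposited raw counts per gene for each library; labels name a further 3′ kit, and the strand setting is not given in the sources used here. The labels also give the organism of MOLM13 as mouse, although it is a human line. Of the per-sample columns in the washout table, 8 were not used here. Lines naming no gene held at most 0.000815% of counts in the washout table and 36.3% to 48.6% in the 48 h table and were left out.

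Genes reaching 2 CPM in 2 or more libraries were tested with edgeR 4.0.16 in R 4.3.3 (quasi-likelihood test, TMM scaling, Benjamini-Hochberg, called at an adjusted p under 0.05), in 1 model of all 24 MOLM13 washout libraries with a coefficient per group and another of 27 libraries for 48 h; the difference of responses was an interaction. DESeq2 1.42.0 was an alternative. The scripts were tested on simulated data. The estimated coefficient of biological variation was 0.556 in the washout model and 0.121 at 48 h. CPM use TMM-scaled library sizes. Detection floors cover counting error only, while SEs and SDs hold the spread between replicates. Each SE of a fold change was worked back from the edgeR test, as the log2 fold change over the square root of F. It thus rests on a spread estimated over all libraries of the model, not on the compared groups alone. Labels number replicates 1 to 3 in each group. Deviations from the group means of same-numbered libraries correlated at 0.20, 0.17 and 0.19 in KO and 0.28, 0.29 and 0.26 in control cells. Those of differently numbered ones were negative, which deviations from a mean of 3 tend to force. The numbers were read as pairing the samples from the positive values alone. The study calls these replicates biological without saying what separates them, so p-values measure the spread between these samples. Named genes were PCGF1, BCOR, study targets, list members and the calls with the largest changes (12 each way by log2, 6 each way by CPM, up to 10 each way for the difference) whose groups do not overlap where that applies; members, lists and rules were chosen with earlier results of these data known. Alternatives were scaling, filter, block, tool, the study's limits (adjusted p under 0.1, log2 beyond 0.5), only the libraries compared, thinning, leaving out each library, and, added after seeing the data, leaving out mitochondrial genes and a withdrawal reference. Gene positions are from GENCODE 44, matched for 91.1% of genes tested.
Some items are not reported here.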

Additional observations from a re-analysis of the deposited data

Results flagged for a closer look

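Differing responses of KO and control cells at 96 h drew attention to 7 genes, by the test of the difference itself in the edgeR model. The KO response minus the control response was −8.47 on the log2 scale for HBB, −7.30 for HBA2, −6.52 for HBA1, −4.50 for S100A9, −6.73 for S100A12, −2.37 for DNASE2 and 5.38 for UBB. For HBB, HBA2, DNASE2 and UBB the KO and control responses were each called, in opposite directions, the KO response of HBA2 not with library size alone (adjusted p = 0.094) or DESeq2 (0.0532). For HBA1 the KO response was −1.47 and not called (adjusted p = 0.0822). The DMSO libraries of the genotypes already differed for the globin genes, DNASE2 and UBB, and the part of that difference in the contrast was not tested.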

How the results depend on the processing

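Of the 274 named genes called in the KO response, 274 kept the call with the replicate block, 261 with DESeq2, 243 with RLE factors, 228 without the filter, 205 with library size alone and 154 when thinned; 130 kept it under every alternative and 107 also without any single library, and none reversed. Counts that moved by over 1.5 times were, for the KO response, 1732 calls when thinned and 15 against the 96 h withdrawal libraries; for the control response, 5133 with the replicate block; and for the difference, 12 without the filter beyond 1 count and 2 when thinned. Leaving out 1 library gave 1721 to 2939 calls in KO cells, 1337 to 2813 in control cells, 5 to 11 for the difference (11 without KO VTP50469 replicate 2), 696 to 846 in PCGF1 KO and 627 to 677 in BCOR KO cells at 48 h. In control cells the count was 1337 without VTP50469 replicate 1, 1803 without VTP50469 replicate 2, 1360 without DMSO replicate 2 and 1953 without DMSO replicate 3. DESeq2 called 4322 genes in KO cells (56.1% higher) and the study's limits 4863. The replicate block kept all 274 named calls. Among list counts it moved mitotic genes from 8 to 14 lower, primary granule genes from 1 to 3 and HOXA genes from 1 to 2 lower. Interferon genes went from 1 higher and 1 lower to 3 and 3, and NF-κB genes from 1 lower to 3 higher and 3 lower. G1 regulators went from 3 to 5, cholesterol genes from 2 to 4 and dendritic genes from 1 to 2 lower. Lysosomal genes went from 8 to 12 lower, glycolysis from 7 to 10, apoptosis from 6 to 9 and amino acid genes from 10 to 12. MYC and nucleolar genes went from 11 to 13 lower, replication from 10 to 11, monocyte genes from 3 to 4 and erythroid genes from 2 to 3. Raised counts went from 3 to 5 for mitotic genes and from 1 to 2 for apoptosis, amino acid, lysosome and cholesterol genes. MLL and DOT1L genes went from 7 to 10 higher, integrins from 3 to 4, and myeloid factors and fatty acid genes from 2 to 3. In PRC1.1 and replication 1 gene was raised in place of none. Signs that turned belonged to genes not called: HOXA9 (0.17 with library size alone, 0.39 when thinned, 0.36 without KO VTP50469 replicate 1 and 0.32 without KO DMSO replicate 3), PCGF1 (−5.07 when thinned, −5.13 without KO VTP50469 replicate 1), BCOR (0.029 when thinned) and MSI2 (−0.0054 without KO VTP50469 replicate 1). Without 1 KO library they ranged from −1.45 to 0.36 for HOXA9, −5.13 to 1.93 for PCGF1 and −0.0054 to 0.96 for MSI2; the cause was not tested. Of the 7 differing genes, DNASE2 was not called with library size alone (−2.35, adjusted p = 0.0934) and S100A12 in neither scaling alternative. UBB was not called when thinned. The depth of KO VTP50469 replicate 2 limits all values under 4.75 CPM there.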

Other observations

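Families not described above were looked at after the calls were seen. Mitochondrial ribosomal protein genes had 47 lower and none higher of 73 tested in KO cells (median −1.92; 22 lower with library size alone), proteasome genes 29 lower and 1 higher of 42 (−1.93; 16 lower), complex I genes named NDUF 13 lower of 42 (−1.58; 7 lower), and cytosolic ribosomal protein genes 7 lower of 77 (−0.91; 1 lower), beside 17.1% of all genes lower and 10.6% higher. Zinc finger genes named ZNF had 49 higher and 12 lower of 335 (median 0.51; 77 and 3 with library size alone) and histone demethylase genes named KDM 6 higher and 1 lower of 17 (1.07). Control cells gave 48 of 73 lower for mitochondrial ribosomal proteins and 42 higher of 335 for ZNF genes.

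Raised genes spanned a median of 67 kb of genome, lowered genes 24.1 kb and all genes tested 31.2 kb, with longest transcripts of 5948, 2747 and 3720 bases. In control cells at 96 h the spans were 61.9 kb for raised and 26.1 kb for lowered genes. At 48 h in PCGF1 KO cells the order was the other way, at 27.4 kb for raised and 35.8 kb for lowered genes against 28.4 kb for all. Depth, mitochondrial share and MALAT1 moved with treatment at 96 h, and their part in this was not tested.

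Of 321 listed genes with at least 10 CPM in control DMSO cells of the 48 h experiment, 21 were under 2 CPM in all 12 libraries of the 96 h comparison and 9 had no count there. They include LDHA (1087 CPM at 48 h), ELANE (915), PRTN3 (1013), AZU1 (145), RING1 (67.6), RYBP (20.9), PBX2 (34.5) and TNF (104). The cause was not tested, and no value at 96 h is drawn from these genes.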
